A study of Mus musculus with 56 samples.

Results

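The 10 genes described here, Gfap, Vim, Nes, Synm, Serpina3n, Lcn2, Timp1, Cd44, Osmr and S1pr3, are the classical transcripts of reactive astrocytes together with their intermediate filament partners. They were selected by symbol from the 3 deposited count tables, and all 10 were found in each table, out of 55386 genes listed in any of them. The series measured RNA from barrel cortex, the whisker area of the mouse cerebral cortex, at postnatal day 5. Translating ribosome affinity purification was used: EGFP fused to the ribosomal protein L10a labels the ribosomes of a chosen cell type, an antibody to GFP recovers them with their mRNA (bound RNA), and the supernatant keeps the remainder (unbound RNA).

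All animals had the whiskers on the right side of the face cauterised at postnatal day 4, 24 h before the cortex was taken, so that the left cortex would be the deprived side and the right cortex the control side. The astrocyte line was Aldh1l1::eGFPL10a, in which the Aldh1l1 promoter drives the tag, and it received no tamoxifen according to its labels. The heterozygous microglial line was Cx3cr1CreErt2/+(Litt) Eef1a1LSL.eGFPL10a/+, with 1 Cx3cr1 allele carrying a tamoxifen-inducible Cre. The knockout microglial line was Cx3cr1CreErt2/CreErt2(Litt) Eef1a1LSL.eGFPL10a/+, with both alleles carrying it, so that its deprived and control animals alike lack intact Cx3cr1, the fractalkine receptor gene. Both microglial lines were given 50 µg of tamoxifen on each of postnatal days 1 to 3, and their Cre is active in any cell that uses the Cx3cr1 promoter, border macrophages included. Controls and deprived samples of a line thus shared genotype, tamoxifen and lesion. Each fraction gave 5 deprived and 5 control libraries for the astrocyte and the knockout line, and 4 of each for the heterozygous line, 56 in all. The labels name total RNA for the astrocyte and heterozygous lines and polyA RNA for the knockout line, so that RNA type and genotype cannot be told apart between these lines.

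Gfap is the main intermediate filament protein of mature astrocytes. Vimentin, nestin and synemin build filaments with it in immature and reactive astrocytes, and vimentin is also made by radial glia, vessel cells and activated microglia. After injury, cytokines that signal through gp130, among them oncostatin M, whose receptor chain is encoded by Osmr, activate Stat3, and Stat3 is known to drive Gfap transcription. Serpina3n and Timp1 encode secreted protease inhibitors and Lcn2 a secreted iron-siderophore carrier, while Cd44 encodes the hyaluronan receptor and S1pr3 a receptor for sphingosine 1-phosphate.

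The promoters of 4 genes whose levels differed between groups are shown because the Stat family recognises a short palindrome, TTCNNNGAA, that can be looked for directly. Each window runs from 250 bases before to 50 bases after the RefSeq start (build GRCm38.p6), is written 5′ to 3′ on the gene's strand, and has the palindrome in capitals where it occurs. The windows are chr11:102897151-102897450 on the minus strand for Gfap, chr2:13574061-13574360 on the plus strand for Vim, chr7:67759693-67759992 on the minus strand for Synm and chr12:104406458-104406757 on the plus strand for Serpina3n.
Gfap: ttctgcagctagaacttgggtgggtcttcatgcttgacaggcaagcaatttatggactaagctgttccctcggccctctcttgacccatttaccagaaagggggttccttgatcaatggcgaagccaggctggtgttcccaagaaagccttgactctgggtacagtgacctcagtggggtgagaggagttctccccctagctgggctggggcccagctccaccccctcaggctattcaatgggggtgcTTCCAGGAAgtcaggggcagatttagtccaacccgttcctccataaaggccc
Vim: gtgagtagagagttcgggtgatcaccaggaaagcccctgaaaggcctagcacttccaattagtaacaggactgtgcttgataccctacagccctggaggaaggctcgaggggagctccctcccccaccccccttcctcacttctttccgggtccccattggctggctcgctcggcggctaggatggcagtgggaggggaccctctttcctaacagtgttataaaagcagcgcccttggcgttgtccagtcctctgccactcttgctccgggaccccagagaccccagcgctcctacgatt
Synm: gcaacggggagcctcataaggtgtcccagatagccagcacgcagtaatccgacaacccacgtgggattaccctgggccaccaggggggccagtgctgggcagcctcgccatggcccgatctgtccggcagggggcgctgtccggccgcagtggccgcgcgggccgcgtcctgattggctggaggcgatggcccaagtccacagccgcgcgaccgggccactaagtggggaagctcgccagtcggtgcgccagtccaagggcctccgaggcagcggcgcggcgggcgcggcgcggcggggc
Serpina3n: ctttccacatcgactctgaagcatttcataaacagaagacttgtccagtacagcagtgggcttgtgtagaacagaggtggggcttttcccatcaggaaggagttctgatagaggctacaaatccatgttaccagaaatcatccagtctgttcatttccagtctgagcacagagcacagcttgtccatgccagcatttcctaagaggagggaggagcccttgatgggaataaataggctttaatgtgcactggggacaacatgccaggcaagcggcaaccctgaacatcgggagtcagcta
Of the 10 genes, only Gfap held a TTCNNNGAA in its window, written TTCCAGGAA, starting 2 bases before the RefSeq start. None of the 10 windows held TGACTCA, the AP-1 element, on either strand. Among 32851 mouse promoter windows of the same length 8.3% held TTCNNNGAA and 5.2% held TGACTCA. A single match among 10 windows therefore describes the sequence only, and whether a Stat protein binds there was not tested.

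In the GENCODE annotation of GRCm38 the filament genes lie at chr11:102887336-102900912 (Gfap), chr2:13573927-13582826 (Vim), chr3:87971078-87980451 (Nes) and chr7:67730160-67759742 (Synm), and Serpina3n lies at chr12:104406729-104414329. Counts are over exons. Exons of Synm overlap Ttc23 and Gm45102, and those of S1pr3 overlap Gm32834, each on the opposite strand. Because the strand setting of the counting is not given in the sources used here, those counts are uncertain to that extent. Serpina3n belongs to a cluster of near-identical paralogs, and its counts could be split among them.

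Library totals ran from 10081228 to 28584281 counts in the astrocyte line and from 32772396 to 56689296 counts in the microglial lines. The labelled cell types were checked on marker lists. Of all genes tested, 31.5%, 31.8% and 31.6% were higher in bound RNA of the astrocyte, heterozygous and knockout lines. The shares lower in it were 27.6%, 30.8% and 30.4%. Bound RNA of the astrocyte line was enriched for 9 of 10 astrocyte markers (median log2 bound over unbound 1.06) and for 0 of 7 tested microglial markers. Bound RNA of the heterozygous and knockout lines was enriched for 8 of 8 microglial markers (medians 2.80 and 2.82) and for 5 of 5 border macrophage markers (medians 2.14 and 2.15), while 7 and 6 of 10 astrocyte markers were lower in it (medians -0.57 and -0.56). Cx3cr1 itself stood at 7.24 to 13.7 CPM (counts scaled to a common library size) in bound RNA of the heterozygous line and at 0.372 to 1.40 CPM in that of the knockout line. Nothing in the labels says which astrocyte libraries came from the same animal, so p-values there measure the spread between libraries.

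The heterozygous labels conflict in part. Titles call pieces 14L, 15L, 17L and 17R deprived and 14R, 15R, 21L and 21R control, where the number is the mouse and the letter the side of the brain. With right whiskers cauterised, the right piece of mouse 17 and the left piece of mouse 21 go against their titles. Groups follow the titles here, and the deprivation calls among the 8 tested genes are also given without those pieces and with the groups formed by side letter. The changes of the pathway and marker lists are given by the titles alone.

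Vim was the most abundant of the 10 transcripts per kilobase of exon in every line and fraction. In bound RNA of the astrocyte line the levels were 62.8 ± 10.6 CPM per kilobase for Vim (SD, n = 10), 33.7 ± 3.22 for Synm, 31.9 ± 5.07 for Gfap and 14.1 ± 2.14 for Nes. The ranges of Synm and Gfap overlapped there, and those of Vim and Synm and of Gfap and Nes did not. Cd44, Serpina3n and S1pr3 followed at 2.25 ± 0.320, 1.72 ± 0.544 and 1.31 ± 0.145 CPM per kilobase, each overlapping its neighbour. Osmr stood at 0.315 ± 0.0992 CPM per kilobase, below S1pr3 with no overlap. In unbound RNA Gfap came after Vim, Synm and Nes in the astrocyte line at 5.28 ± 0.923 CPM per kilobase, and next after Vim in the heterozygous line at 8.30 ± 2.35 (n = 8) and the knockout line at 8.26 ± 1.51 (n = 10), where its range overlapped those of Vim and Synm.

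Lcn2 and Timp1 were close to the detection limit everywhere. Lcn2 had 0 to 16 counts per library and Timp1 0 to 19, and neither passed the filter on low counts in the tests of bound against unbound or deprived against control RNA. The other 8 genes passed it in each of those tests. No fold is given for Lcn2 or Timp1 between deprived and control samples, since most of their libraries lie at or near the limit that 3 counts set.

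**Figure D1:**
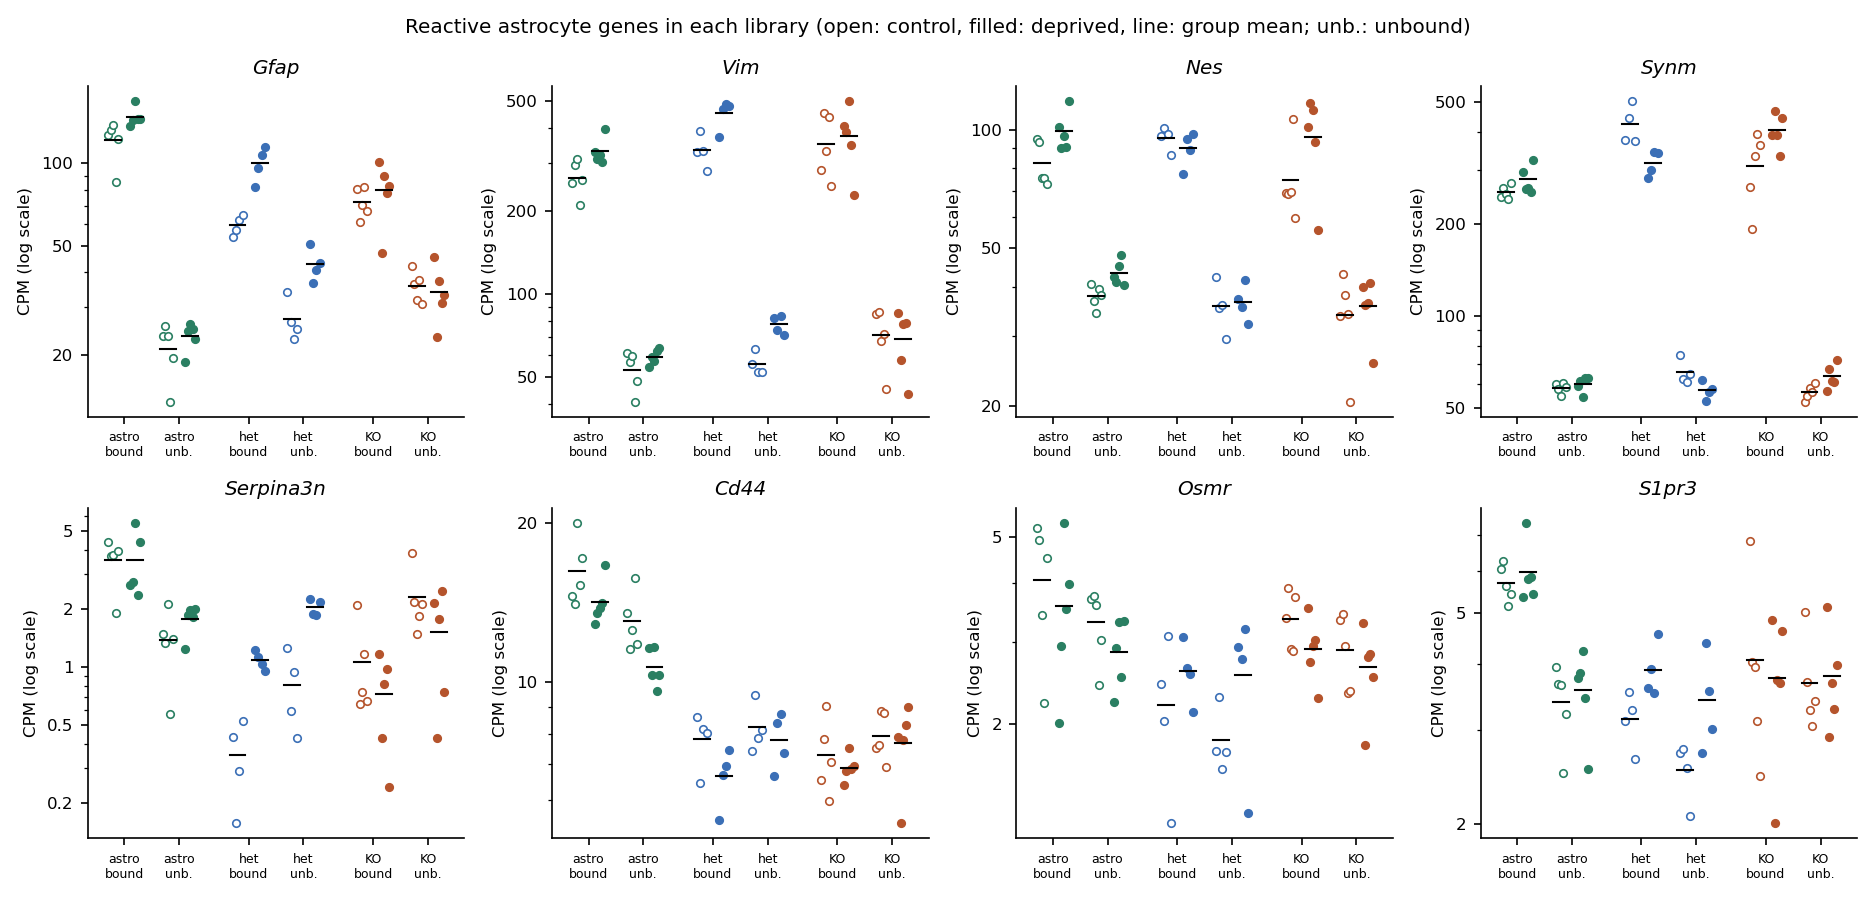
CPM (log scale) of the 8 genes that passed the filter in each library, by line (astro, astrocyte; het, heterozygous; KO, knockout) and fraction; open points are control and filled points deprived libraries, and the line is the group mean. The filament genes lie higher in bound than in unbound RNA in all 3 lines, and the group means of Serpina3n lie higher in bound than in unbound RNA in the astrocyte line and lower in both microglial lines.

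Bound RNA was compared with unbound RNA within each line. These fits, and those between lines below, took each library as a replicate, without a block for the piece or the mouse. The heterozygous libraries came from 4 mice and the knockout libraries from 5. Their SE and p-values therefore measure the spread between libraries and not between mice. Gfap was the most enriched of the 8 genes in the astrocyte line. Its bound over unbound ratio of CPM ran from 5.19 to 7.29 over 10 pairs of libraries, with a median of 6.11. These pairs share condition and replicate number, since the astrocyte labels do not name the piece of cortex. In the heterozygous line the ratio ran from 1.91 to 2.50 with a median of 2.30 (n = 8), and in the knockout line from 1.67 to 2.51 with a median of 2.2 (n = 10). The ranges of the astrocyte line and of either microglial line do not overlap. The log2 enrichment of Gfap was 2.59 ± 0.09 (SE, edgeR quasi-likelihood test, adjusted p = 6.3e-19), 1.16 ± 0.09 (adjusted p = 2.9e-10) and 1.10 ± 0.12 (adjusted p = 1.9e-08) in the astrocyte, heterozygous and knockout lines.

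The other filament genes were enriched to a similar or higher degree in the microglial pulldowns. The ratio for Vim had a median of 5.23 in the astrocyte line (4.15 to 6.27), 5.76 in the heterozygous line (4.99 to 7.51) and 5.27 in the knockout line (3.32 to 6.73), and the 3 ranges overlap. That for Synm had medians of 4.55 (4.00 to 5.18), 5.73 (5.03 to 7.80) and 6.07 (3.53 to 6.97). Nes, the nestin gene of neural progenitors, had medians of 2.19 (1.88 to 2.92), 2.67 (2.04 to 3.30) and 2.41 (1.59 to 3.25). In each of the 28 pairs of bound and unbound libraries all 4 filament genes were higher in bound RNA.

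Serpina3n went in opposite directions. Its ratio was above 1 in 10 of 10 pairs of the astrocyte line (1.31 to 3.32, median 2.50). Its bound and unbound levels overlapped there (1.89 to 5.55 and 0.570 to 2.10 CPM), so that count rests on the matching by replicate number. The ratio was above 1 in 0 of 8 pieces of the heterozygous line (0.165 to 0.737, median 0.545). In the knockout line it was above 1 in 1 of 10 pieces (0.298 to 1.00, median 0.485). The log2 enrichment was 1.16 ± 0.19 (adjusted p = 9.4e-06), -1.07 ± 0.22 (adjusted p = 0.00027) and -1.09 ± 0.31 (adjusted p = 0.0036). The receptor genes Cd44 and S1pr3 were modestly enriched in the astrocyte line, at 0.35 ± 0.07 (adjusted p = 0.00022) and 0.73 ± 0.10 (adjusted p = 3.6e-07) on the log2 scale. They stood in the heterozygous line at -0.17 ± 0.09 and 0.23 ± 0.11 and in the knockout line at -0.16 ± 0.09 and 0.04 ± 0.17, none past the threshold. For Osmr the log2 values were 0.30 ± 0.16 (adjusted p = 0.11), 0.11 ± 0.18 and 0.15 ± 0.12.

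In counts, 7 of the 8 genes were higher and 0 lower in bound RNA of the astrocyte line, where 31.5% of all genes tested were higher and 27.6% lower. In the heterozygous line 4 were higher and 1 lower, against 31.8% and 30.8% of all genes, and in the knockout line again 4 were higher and 1 lower, against 31.6% and 30.4%. The median log2 enrichment of the 8 genes was 1.15, 0.69 and 0.63, beside medians of 0.03, -0.01 and -0.01 over all genes tested. The genes called stayed past the threshold in all 5 alternatives and without each replicate in turn. S1pr3 of the heterozygous line passed as well without deprived replicate 1 (0.32, adjusted p = 0.023) or control replicate 4 (0.29, adjusted p = 0.045), and Cd44 without deprived replicate 4 (-0.24, adjusted p = 0.036).

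**Figure D2:**
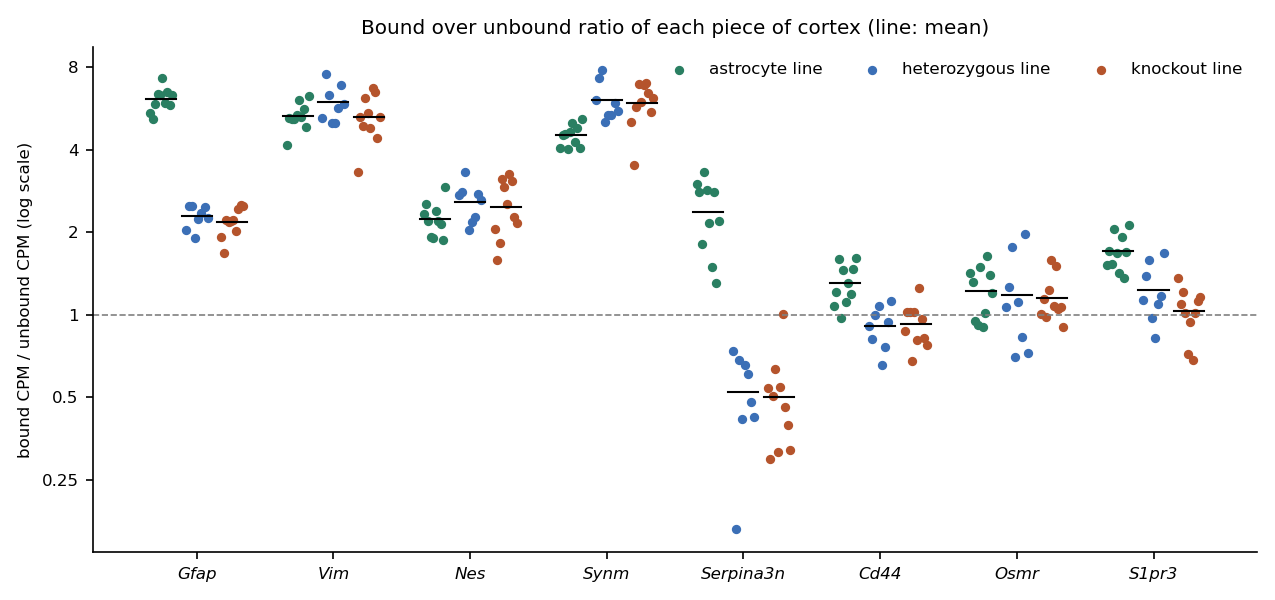
Ratio of bound to unbound CPM (log scale) by gene and line. Each point is 1 piece of cortex, or in the astrocyte line 1 pair of libraries of the same condition and replicate number. The line is the mean and the dashed line marks a ratio of 1. Gfap and Serpina3n separate the astrocyte line from both microglial lines, while the points of Vim and Nes overlap across the 3 lines.

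The difference in enrichment between lines was tested directly. Gfap was enriched more in the astrocyte line than in the heterozygous line by 1.51 ± 0.13 on the log2 scale (adjusted p = 4.9e-12) and more than in the knockout line by 1.50 ± 0.15 (adjusted p = 1.3e-10). Serpina3n exceeded them by 2.30 ± 0.30 (adjusted p = 6.1e-08) and 2.27 ± 0.38 (adjusted p = 4.0e-06). Smaller differences in the same direction were found for Cd44, 0.60 ± 0.11 (adjusted p = 4.0e-05) and 0.52 ± 0.12 (adjusted p = 0.00041), and for S1pr3, 0.57 ± 0.15 (adjusted p = 0.0019) and 0.69 ± 0.20 (adjusted p = 0.0052). Synm was the exception, enriched less in the astrocyte line, by -0.32 ± 0.08 (adjusted p = 0.0010) and -0.37 ± 0.11 (adjusted p = 0.0055).

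For Vim the difference between the astrocyte and heterozygous lines was -0.07 with a 95% interval of -0.28 to 0.14, and for Nes it was -0.11 with an interval of -0.29 to 0.08. Against the knockout line the intervals were -0.30 to 0.39 for Vim and -0.41 to 0.21 for Nes. Thus 4 of 9 genes tested were higher and 1 lower in each contrast, where 24.7% and 17.1% of all genes were higher and lower against the heterozygous line and 20% and 19.9% against the knockout line. The median difference over all genes was 0.14 and 0.06. Nes passed against the heterozygous line without astrocyte deprived replicate 5 (-0.22, adjusted p = 0.049). Timp1, tested in these contrasts alone, stood at 1.59 ± 0.74 against the knockout line (adjusted p = 0.086) and passed without astrocyte control replicate 1 (1.96, adjusted p = 0.048) or knockout deprived replicate 18 (2.02, adjusted p = 0.036). No gene tested, member or not, passed between the knockout and heterozygous lines by edgeR with the filter (0% of 20676). At an unadjusted p under 0.05 there were 712. The Gfap difference between these 2 lines was -0.05 with an interval of -0.37 to 0.27. The astrocyte line differs from the others in transgene, tamoxifen and depth as well as in the tagged cell, and these cannot be told apart in this contrast.

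The position of the filament genes relative to the marker lists differed between them. In the heterozygous line Gfap, Vim, Nes and Synm were enriched in bound RNA while the astrocyte markers Slc1a3 (glutamate transporter, -0.85 ± 0.06), Aqp4 (water channel, -0.83 ± 0.06) and Aldoc (aldolase C, -0.70 ± 0.07) were depleted from it on the log2 scale. The 2 astrocyte markers enriched there, Fgfr3 at 0.48 and Slc4a4 at 0.16, both lay below Gfap. Nefl, the neurofilament light chain gene of the neuron list, was enriched in all 3 lines, at 4.21 ± 0.09, 4.59 ± 0.11 and 4.41 ± 0.10. The neuronal genes Snap25 and Syt1 were instead depleted in each line. Summed CPM of all 8 neuron markers, Nefl included, went the other way from Snap25 and Syt1. Among control libraries the median sums, bound against unbound, were 4354 against 3106 (astrocyte), 6554 against 3648 (heterozygous) and 7056 against 3547 (knockout). Deprived libraries gave 4874 against 3101, 6525 against 3433 and 6500 against 3532. The share of Nefl in these sums was not tested. Exons of Nefl overlap Nefm on the opposite strand.

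**Figure D3:**
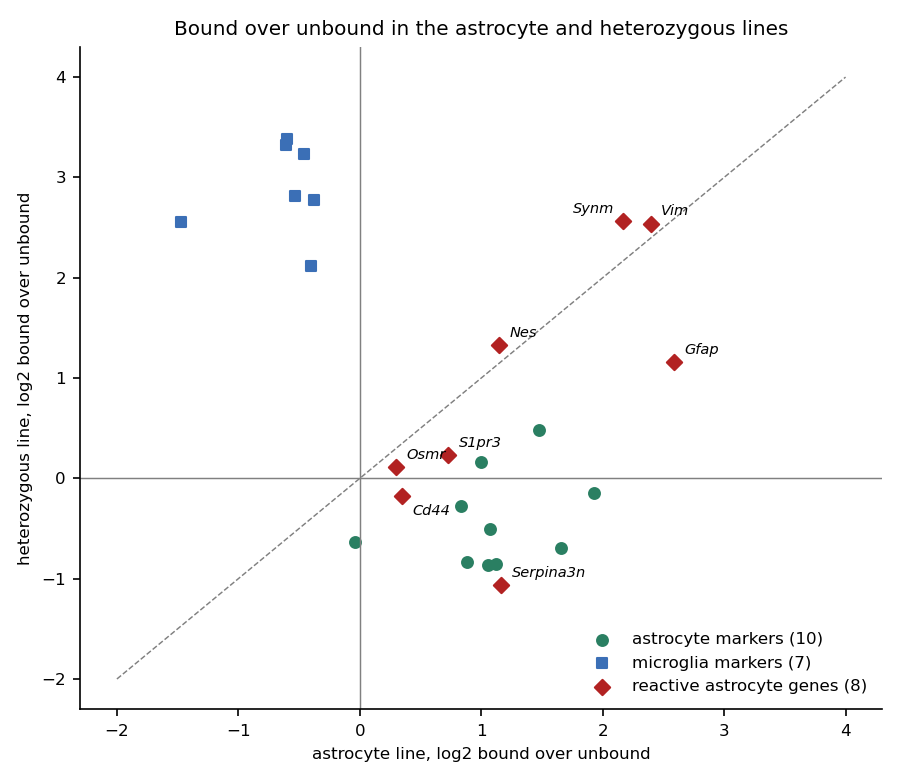
Log2 bound over unbound in the astrocyte line (horizontal axis) against the heterozygous line (vertical axis) for the 8 genes, 10 astrocyte markers and 7 microglial markers; the dashed line marks equal values. Vim, Nes and Synm lie on or just above the line of equality, Gfap at 2.59 and 1.16 lies below it, and Serpina3n at 1.16 and -1.07 lies among the astrocyte markers.

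Of all genes, 31.5% to 31.8% were higher and 27.6% to 30.8% lower in bound RNA of the 3 lines. Most tested genes of the gp130 and Stat3 axis, upstream of Gfap, were higher in each line. In the astrocyte line 6 of 8 tested were higher in bound RNA and 0 lower, among them the gp130 gene Il6st (0.60 ± 0.06), the receptor chain Cntfr (0.65 ± 0.09) and Stat3 (0.38 ± 0.05). In the heterozygous and the knockout line 7 of 9 were higher and 1 lower, among them the interleukin 6 receptor gene Il6ra (1.89 ± 0.13 and 1.92 ± 0.21) and the kinase gene Jak2 (0.54 ± 0.05 and 0.65 ± 0.05). Medians were 0.27, 0.42 and 0.36, beside 0.03, -0.01 and -0.01 over all genes tested. Of the genes described for the inflammatory type of reactive astrocyte, 4 were higher and 4 lower of 11 in the astrocyte line, 7 higher and 2 lower of 12 in the heterozygous, and 6 and 0 of 12 in the knockout line. The immunoproteasome gene Psmb8 (1.92 ± 0.18) and the complement gene C3 (1.66 ± 0.17) led this list in the heterozygous line, and both are also known from microglia. Of the ischaemic type, 3 were higher and 2 lower of 8 in the astrocyte line, and 2 and 3 of 10 in either microglial line. Of the other shared reactive genes 0 of 1, 1 of 4 and 0 of 4 were higher in the 3 lines, and 0, 1 and 1 were lower, Hspb1 in both microglial lines (-1.0 ± 0.32 and -1.48 ± 0.35).

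Deprivation was compared within each line and fraction. In the heterozygous line, Gfap was higher in deprived than in control libraries in both fractions. Bound Gfap was 53.7, 57.4, 62.2 and 65.0 CPM in the control pieces 14R, 15R, 21L and 21R and 81.9, 96.5, 107 and 115 CPM in the deprived pieces 14L, 15L, 17L and 17R. Unbound Gfap was 26.3, 22.9, 24.8 and 34.1 CPM in the same control pieces and 36.6, 40.9, 43.3 and 51.0 CPM in the deprived ones. The groups do not overlap in either fraction. The log2 change was 0.74 ± 0.10 in bound RNA (adjusted p = 0.0012) and 0.71 ± 0.12 in unbound RNA (adjusted p = 0.0057). Each library was a replicate in the fits of this line, without a block for the mouse. Both pieces of mouse 17 are in the deprived group and both of mouse 21 in the control group. The p-values here therefore measure the spread between libraries and not between mice.

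Vim moved in the same direction as Gfap. Bound Vim was 328, 390, 331 and 279 CPM in control and 370, 471, 489 and 482 CPM in deprived pieces, with 14L below 15R. Unbound Vim was 62.9, 52.0, 52.2 and 55.9 CPM in control and 73.9, 83.4, 71.0 and 82.1 CPM in deprived pieces, with no overlap. The log2 change was 0.44 ± 0.11 (adjusted p = 0.023) and 0.52 ± 0.08 (adjusted p = 0.0020).

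Serpina3n showed the largest fold of the 8 genes at a low level. In bound RNA it stood at 0.435, 0.156, 0.292 and 0.524 CPM in control and 1.23, 1.13, 1.04 and 0.954 CPM in deprived pieces, a log2 change of 1.60 ± 0.36 (adjusted p = 0.014). In unbound RNA it stood at 0.590, 0.946, 0.428 and 1.26 CPM in control and 1.87, 1.85, 2.17 and 2.24 CPM in deprived pieces, a log2 change of 1.36 ± 0.27 (adjusted p = 0.013). Neither pair of groups overlaps, and the counts behind the bound values ran from 6 to 52 per library.

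Synm fell in bound RNA. It was 377, 446, 505 and 375 CPM in control pieces 14R, 15R, 21L and 21R and 283, 301, 344 and 341 CPM in deprived pieces, without overlap, a log2 change of -0.44 ± 0.10 (adjusted p = 0.017). In unbound RNA the change was -0.16 ± 0.08 (adjusted p = 0.30). Nes, Cd44, Osmr and S1pr3 did not pass in either fraction, with log2 values of -0.10, -0.24, 0.23 and 0.30 in bound and 0.07, -0.04, 0.50 and 0.48 in unbound RNA. Their 95% intervals were widest for Osmr, -0.31 to 0.76 and -0.02 to 1.02.

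In counts, 3 of 8 genes rose and 1 fell in bound RNA, where 10.3% of all genes tested changed, 5.52% higher and 4.76% lower. In unbound RNA 3 rose and 0 fell, where 3.75% changed, 2.70% higher and 1.05% lower. By edgeR with the filter and no block, the deprivation effect differed between fractions for 0 of 8 genes and 0% of all genes in this line. At an unadjusted p under 0.05 there were 1904 of 19275. For Gfap the difference between fractions was 0.07 with a 95% interval of -0.29 to 0.43.

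These calls depend on the disputed titles. Without pieces 17R and 21L bound Gfap kept its call (0.68, adjusted p = 0.012), as did unbound Vim (0.47, adjusted p = 0.030). Lost were bound Vim (0.40, adjusted p = 0.11), bound Synm (-0.38, adjusted p = 0.058), bound Serpina3n (1.58, adjusted p = 0.063), unbound Gfap (0.58, adjusted p = 0.060) and unbound Serpina3n (1.13, adjusted p = 0.077). Leaving out single libraries ended the call of bound Vim (deprived replicate 2, 3 or 4, or control replicate 4) and of bound Synm (deprived replicate 2). With groups formed by side letter no gene passed in either fraction, and Gfap stood at 0.24 in bound and 0.15 in unbound RNA (adjusted p = 0.92 and 0.93). A further fit took mice 14 and 15 alone, whose titles and letters agree, with mouse as a block. In bound RNA Gfap (0.65, adjusted p = 0.00077), Synm (-0.52, adjusted p = 0.0037) and Serpina3n (2.04, adjusted p = 0.037) passed and Vim did not (0.20, adjusted p = 0.26). In unbound RNA Gfap (0.70, adjusted p = 0.0021), Vim (0.50, adjusted p = 0.012) and Serpina3n (1.34, adjusted p = 0.034) passed and Synm did not (-0.13, adjusted p = 0.39). That fit rests on the left and right pieces of these mice only and was added after seeing the data. With so few libraries its p-values lean on the spread shared over all genes. They cannot be ranked against those of the fits with all mice. The left over right ratio of bound Gfap was 1.52 in mouse 14 and 1.68 in mouse 15. In mouse 17, with both pieces titled deprived, it was 0.935, and in mouse 21, with both titled control, 0.956. Bound Gfap in both pieces of mouse 17 was above, and in both of mouse 21 below, its level in the deprived pieces of mice 14 and 15. Mouse and condition cannot be told apart in mice 17 and 21. With their libraries summed by mouse, bound Gfap (0.71, adjusted p = 0.0067), Synm (-0.46, adjusted p = 0.024) and Serpina3n (1.69, adjusted p = 0.035) passed. Bound Vim did not (0.36, adjusted p = 0.11). Unbound Gfap (0.70, adjusted p = 0.011), Vim (0.51, adjusted p = 0.0075) and Serpina3n (1.33, adjusted p = 0.011) passed in that fit.

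**Figure D4:**
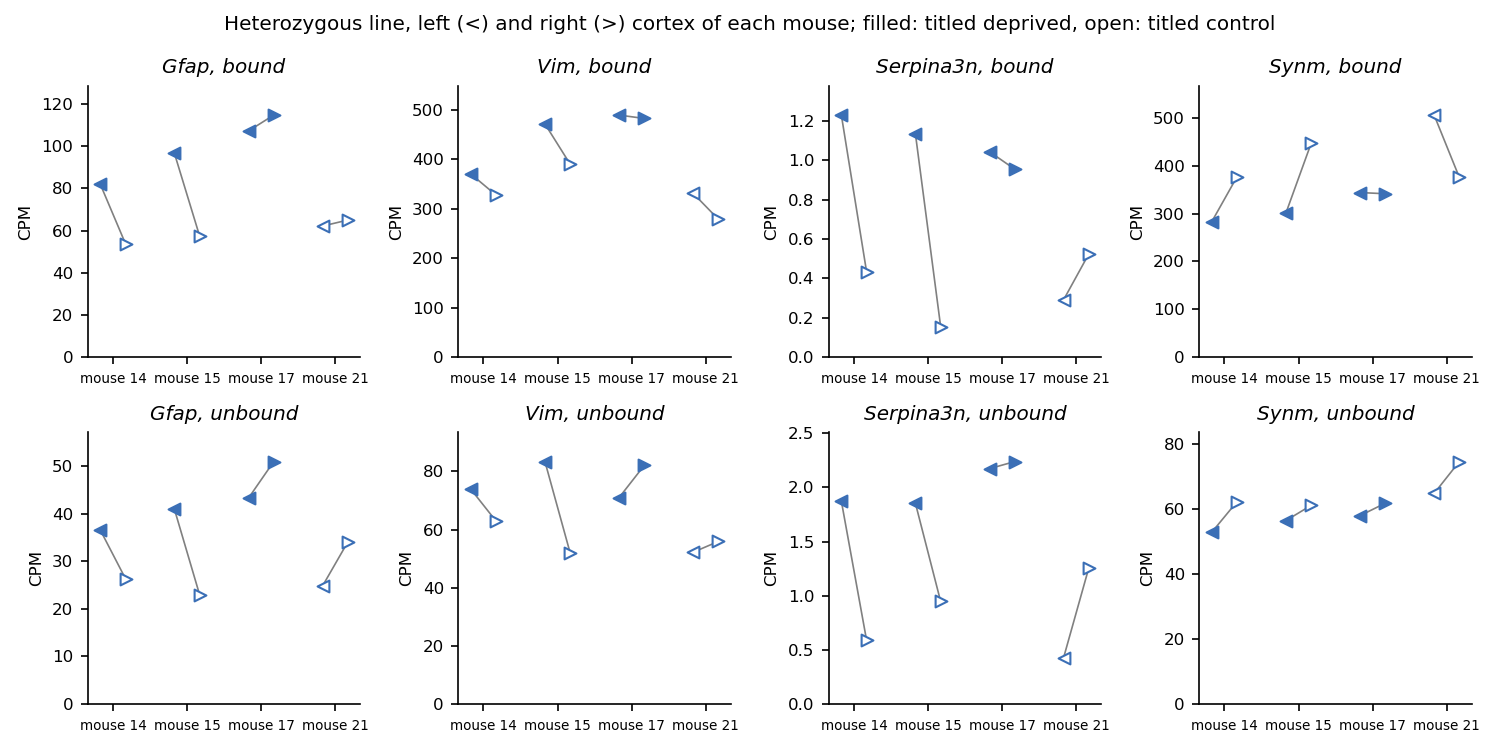
CPM of Gfap, Vim, Serpina3n and Synm in the left (triangle to the left) and right (triangle to the right) cortex of each heterozygous mouse, bound RNA above and unbound RNA below; filled symbols are titled deprived, open ones control, and a line joins the pieces of a mouse. Gfap and Serpina3n differ between the sides of mice 14 and 15, and both pieces of mouse 17 lie above both pieces of mouse 21.

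Summed levels of some marker lists differed between deprived and control libraries of the heterozygous line, and those of others overlapped. The summed CPM of the 8 microglial markers was 127 to 189 in control and 234 to 286 in deprived bound libraries, that of the 5 border macrophage markers 7.64 to 33.6 and 50.4 to 64.3, that of the 6 meningeal fibroblast markers 37.3 to 68.2 and 69.0 to 101, and that of the 10 astrocyte markers 610 to 686 and 701 to 766. In unbound RNA the sums were 21.0 to 28.2 and 28.1 to 30.0 for microglia, 1.55 to 9.15 and 10.3 to 15.2 for border macrophages, 43.7 to 71.2 and 65.1 to 88.4 for meningeal fibroblasts and 759 to 865 and 877 to 1014 for astrocytes. Of these markers, Cd163 and Slc6a13 were at 0 in 1 of 4 control bound libraries each. In bulk RNA, fewer cells of a type and less RNA per cell cannot be told apart. Some sums were lower in deprived libraries. The summed CPM of the 6 oligodendrocyte lineage markers was 116 to 143 in control and 105 to 114 in deprived bound libraries, without overlap, and 141 to 162 and 132 to 147 in unbound ones. That of the 8 neuron markers was 6159 to 8995 and 6173 to 7051 in bound RNA, and 3563 to 3965 and 3410 to 3486 in unbound RNA, where the groups do not overlap. Among control pieces, 15R held the highest neuron and the lowest border macrophage and meningeal fibroblast sums in both fractions. The other control pieces had 6159 to 6734, 26.7 to 33.6 and 60.9 to 68.2 in bound RNA. Piece 15R is also the control side of mouse 15 in the fit on mice 14 and 15. The part of these markers in the changes of Gfap, Vim and Serpina3n was not tested.

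Over all genes tested, 5.52% rose in bound and 2.70% in unbound RNA of this line. By list, 4 of 10 astrocyte markers rose in bound RNA (median log2 change 0.30 beside 0.01 over all genes). They were led by Aldoc (0.50 ± 0.09), Slc1a3 (0.44 ± 0.10) and the connexin gene Gjb6 (1.32 ± 0.30). In unbound RNA 3 of 10 rose, Gjb6 among them at 1.18 ± 0.27. Of the microglial markers 6 of 8 rose in bound and 0 of 8 in unbound RNA, with medians of 0.55 and 0.36. Of the border macrophage markers 3 of 5 and 2 of 5 rose (medians 1.38 and 1.30), and of the meningeal fibroblast markers 1 of 6 (Dcn, 1.49 ± 0.43) and 0 of 6 (medians 0.93 and 1.08). Among radial glia and progenitor genes, which also express Vim and Nes, 3 of 8 rose in bound RNA (Eomes 2.00 ± 0.21, Hopx 1.36 ± 0.15, Fabp7 0.28 ± 0.08) and 2 of 8 in unbound RNA.

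Of the other reactive astrocyte genes in the heterozygous line, some rose, where 5.52% of all genes rose in bound and 2.70% in unbound RNA. Of the inflammatory type 7 of 12 rose and 0 fell in bound RNA (median 0.77), led by the complement inhibitor gene Serping1 (1.84 ± 0.28), the class I gene H2-D1 (0.77 ± 0.12) and the interferon-induced Gbp2 (1.19 ± 0.23). In unbound RNA 2 of 12 rose, Gbp2 (0.95 ± 0.17) and Serping1 (1.24 ± 0.26), with a median of 0.56. Of the ischaemic type 1 of 10 rose in bound RNA (Ptx3, a pentraxin, 0.88 ± 0.20) and 2 of 8 in unbound RNA (Tm4sf1, 0.83 ± 0.18, and the sphingosine kinase gene Sphk1, 1.81 ± 0.43). The chemokine gene Cxcl10 rose in both, by 0.80 ± 0.18 and 1.29 ± 0.22, and the ceruloplasmin gene Cp in unbound RNA, by 0.90 ± 0.20. In the gp130 and Stat3 axis, Stat3 (0.35 ± 0.10, adjusted p = 0.035) and Il6ra (0.47 ± 0.14, adjusted p = 0.049) rose in bound RNA, 2 of 9, and 0 of 8 passed in unbound RNA. The inflammatory type list includes genes that microglia are known to express, and the conflict of titles and side letters touches all of these counts. Exons of Cxcl10, Cp, Gbp2, Sphk1, Stat3, Il6ra, Hopx and Eomes overlap another gene on the opposite strand.

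In the astrocyte line none of the 8 genes passed in either fraction. Bound Gfap was 127, 132, 138, 85.6 and 123 CPM in control replicates 1 to 5 and 138, 144, 169, 145 and 145 CPM in deprived replicates 1 to 5. The groups overlap by 1 pair of values, and control replicate 4 lies below the rest. The log2 change was 0.28 ± 0.10 (adjusted p = 0.73 in edgeR), and 0.19 without that replicate. Bound Vim was 253, 294, 308, 210 and 259 CPM in control and 328, 310, 320, 300 and 398 CPM in deprived replicates, a log2 change of 0.31 ± 0.09 (adjusted p = 0.69 in edgeR). Bound Nes stood at 0.25 ± 0.09 and Synm at 0.12 ± 0.07, and Serpina3n at -0.04 ± 0.27.

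In unbound RNA of the astrocyte line Gfap was 13.5 to 25.5 CPM in control and 18.9 to 26.0 CPM in deprived libraries, a log2 change of 0.13 ± 0.12. Cd44 had the smallest p of the 8 there, with a log2 change of -0.30 ± 0.09 (adjusted p = 0.68 in edgeR). Over all genes 0% passed in bound RNA (1067 of 17685 at an unadjusted p under 0.05), 0% in unbound RNA (1043 of 16846) and 0% for the difference between fractions (546 of 18324). DESeq2 called 4 genes in each fraction, none of the 8. None of the genes in the pathway or marker lists passed either.

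In the knockout line none of the 8 genes passed. Bound Gfap in mice 7, 12, 18, 19 and 22 was 67.0, 80.8, 60.9, 70.3 and 81.9 CPM on the control side and 82.7, 101, 46.9, 89.9 and 78.0 CPM on the deprived side. It was higher on the deprived side in 3 of 5 mice, and mouse 18 had the lowest value on each side. The log2 change was 0.14 with a 95% interval of -0.19 to 0.47. Unbound Gfap was 30.6 to 42.1 CPM on the control side and 23.3 to 45.6 CPM on the deprived side, a log2 change of -0.09 with an interval of -0.40 to 0.21. The heterozygous estimates of 0.74 and 0.71 lie above both intervals, but they carry an error of their own. The difference between the genotypes, tested below, did not pass for Gfap by edgeR with the filter on low counts and no block. It passed in both fractions with the replicate number as a block. By side letter the heterozygous estimates were 0.24 and 0.15.

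Bound Serpina3n in the same 5 knockout mice was 0.670, 2.10, 0.646, 0.747 and 1.16 CPM on the control side and 0.241, 1.17, 0.431, 0.821 and 0.982 CPM on the deprived side. It was higher on the deprived side in 1 of 5 mice, with a log2 change of -0.55 ± 0.43. Bound Synm was 363, 265, 194, 335 and 394 CPM on the control side and 446, 392, 470, 393 and 333 CPM on the deprived side, higher in 4 of 5 mice, with a log2 change of 0.39 ± 0.16 (adjusted p = 1.00 in edgeR). Of all genes 0.00546% passed in bound RNA, 0.0380% in unbound RNA and 0% for the difference between fractions (335 of 19681 at an unadjusted p under 0.05). With mouse as a block 2 and 3 genes passed in the 2 fractions in place of 1 and 7, none of them among the 8. No gene of the pathway or marker lists passed in this line.

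**Figure D5:**
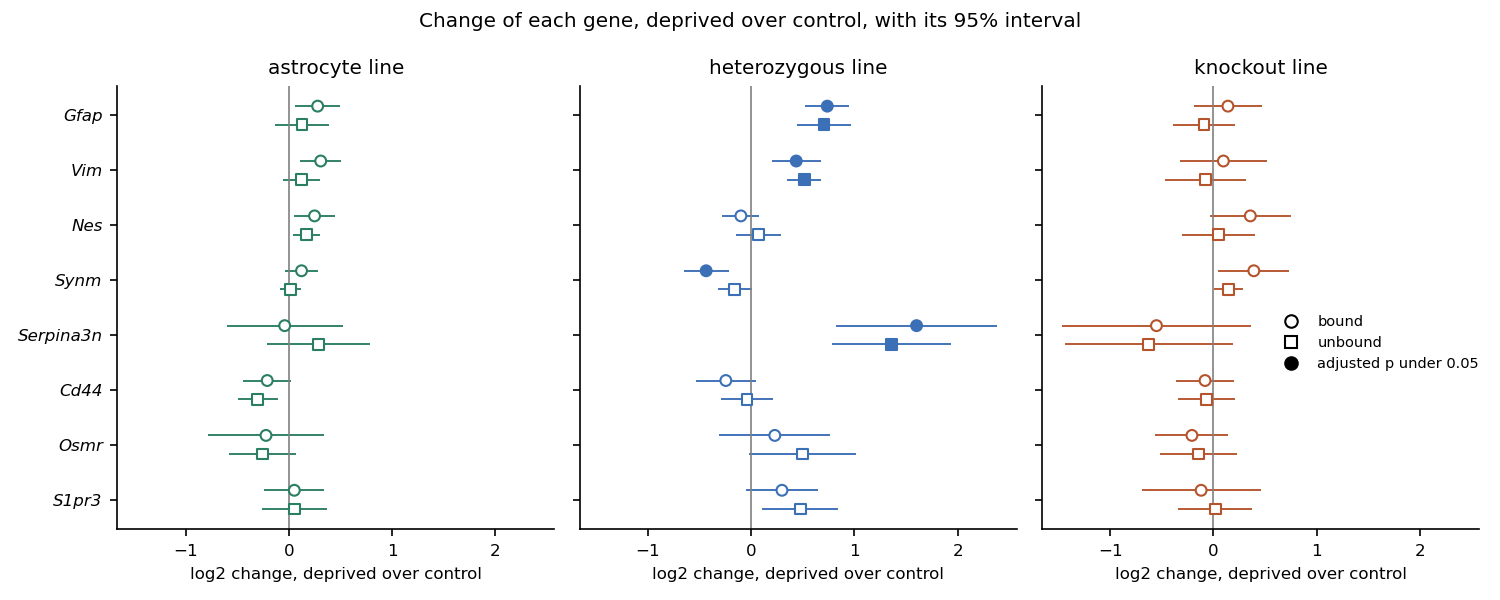
Log2 change of each gene, deprived over control, with its 95% interval, in bound (circles) and unbound (squares) RNA of the 3 lines; filled symbols have an adjusted p under 0.05. The 7 filled symbols are all in the heterozygous line: Gfap, Vim and Serpina3n in both fractions and Synm in bound RNA.

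Whether the effect of deprivation differed between the genotypes was tested as knockout minus heterozygous. For Gfap the difference was -0.60 ± 0.21 in bound RNA (adjusted p = 0.15 in edgeR) and -0.79 ± 0.21 in unbound RNA (adjusted p = 0.057). For Serpina3n it was -2.16 ± 0.60 (adjusted p = 0.087) and -1.98 ± 0.54 (adjusted p = 0.061). Synm stood at 0.82 ± 0.22 (adjusted p = 0.077) and 0.31 ± 0.10 (adjusted p = 0.11), and Vim at -0.34 ± 0.26 and -0.59 ± 0.24 (adjusted p = 0.53 and 0.20). Thus 0 of 8 genes passed in either fraction by edgeR with the filter on low counts and no block, where 0.510% and 1.79% of all genes passed. That fit leaves out the pairing of the sides within the knockout mice. Fits with a block or without the filter, given below, passed some of the 8. At an unadjusted p under 0.05 there were 3 of the 8 in bound and 5 in unbound RNA. Over all genes 3380 of 19601 and 3385 of 19278 reached that unadjusted p. Leaving out 1 library made bound Synm pass (without knockout control replicate 7) as well as unbound Gfap (without heterozygous control replicate 10, knockout control replicate 7 or knockout deprived replicate 12 or 19) and unbound Serpina3n (without knockout deprived replicate 22).

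The replicate number is the mouse in the knockout line but joins 2 pieces of 1 mouse in only 2 of 4 heterozygous pairs. With that number as a block, Gfap (-0.62, adjusted p = 0.027), Synm (0.85, adjusted p = 0.049) and Serpina3n (-2.23, adjusted p = 0.022) passed in bound RNA. In unbound RNA Gfap (-0.82, adjusted p = 0.011), Serpina3n (-2.13, adjusted p = 0.024), Vim (-0.60, adjusted p = 0.026) and Synm (0.30, adjusted p = 0.031) passed. DESeq2 passed Synm and Serpina3n in bound RNA (adjusted p = 0.012 and 0.022) and Gfap and Serpina3n in unbound RNA (adjusted p = 0.014 and 0.011). With heterozygous groups formed by side letter none passed, and Gfap stood at -0.11 and -0.24 (adjusted p = 0.98 and 0.83). Genotype also goes with the RNA type of the label. Among the other reactive genes, Steap4 (-2.82 ± 0.65, adjusted p = 0.033) and Cxcl10 (-2.13 ± 0.50, adjusted p = 0.034) passed in unbound RNA, 2 of 4 of the other shared genes, as did the astrocyte marker S100b (-0.81 ± 0.19, adjusted p = 0.033).

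The pattern of Gfap over the 12 group means of log2 CPM was most like that of Garem2 (Pearson r = 0.989), Ahnak (0.983), Acss1 (0.981), Rhoq (0.981) and Zcchc24 (0.980), out of 9112 genes. Vim was most like Aff1 (0.999), Zbtb4 (0.996), Ctdsp2 (0.996), Sipa1l3 (0.995) and Cecr2 (0.995). Among the 10 genes, Vim followed Synm (0.978) and Nes (0.963) more closely than Gfap (0.902), and Gfap and Serpina3n had an r of 0.208. Among the 9112 genes, Synm, Nes and Gfap ranked only 119, 285 and 863 in likeness to Vim. Vim ranked 141 in likeness to Gfap. The 12 means share libraries, lines and the bound and unbound contrast, so these values describe the groups and carry no test.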

How the data were processed

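The authors deposited 3 tables of raw read counts per Ensembl gene, 1 per line, with 1 column per library. The submitters' processing notes name featureCounts 2.0.0 and HISAT2 2.2.0 with the builds mm10 and GRCm38, together with cutadapt 2.9, FastQC 0.11.9 and Trim Galore 0.6.4. Settings and the counted strand are not given in the sources used here. Per the labels' protocols, cDNA came from the NuGEN Ovation V2 kit. Coordinates and exon lengths came from GENCODE vM21 on GRCm38, and promoters from RefSeq on GRCm38.p6 (10 of 10 genes matched).

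Libraries were grouped by title. The test on the counts was that of edgeR 4.0.16, run in R 4.3.3 (TMM, filterByExpr, two-sided quasi-likelihood F test, Benjamini-Hochberg over all genes tested, threshold 0.05). Deprivation was fitted with the groups of 1 line and fraction alone, bound against unbound with the 4 groups of a line, and differences between lines with the groups of both. CPM (a gene's share of its library's counts, scaled alike in all libraries) used TMM library sizes, and log2 levels a prior count of 2. Intervals at 95% use the t quantile of the fit's degrees of freedom. The tests were checked on simulated counts.

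All 10 genes are reported in each comparison. Of the pathway and marker lists, up to 3 genes per list with the smallest p are named where at least 1 passed, and for Gfap and Vim the 5 most alike genes. Fgfr3 and Slc4a4 in the heterozygous line, and Syt1, Snap25 and Gjb6 where they rank lower, were chosen after their values were seen. The genes and lists were chosen with earlier results of these data known.

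Knockout replicate numbers name the mouse, which pairs the sides of 1 animal. As a check, deviations from the group means correlated over 0.1 between the 2 sides in 4 of 5 mice for bound and 3 of 5 for unbound RNA. Alternatives were DESeq2 1.42.0, its size factors, limma-voom (limma 3.58.1) with sample weights, no filter, a replicate block, sex as a term, all 4 groups in 1 fit, each replicate left out, and for the heterozygous line groups by side letter or without pieces 17R and 21L. Fits on mice 14 and 15 alone, or with the libraries of mice 17 and 21 summed, were added after seeing the data.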

Additional observations from a re-analysis of the deposited data

Results flagged for a closer look

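Each of 96 groups of 4 or 5 libraries (8 genes in 12 groups) was examined for a single value far from the others, which chance gives in about 1 group in 20. In the astrocyte line, bound control replicate 4 was lowest for Gfap at 85.6 CPM (next 123) and for Serpina3n at 1.89 CPM (next 3.73). In bound deprived libraries of that line Gfap was highest in replicate 3 at 169 CPM (next 145), Vim in replicate 5 at 398 CPM (next 328) and S1pr3 in replicate 2 at 7.39 CPM (next 5.83). Unbound Serpina3n was lowest in deprived replicate 1 at 1.23 CPM (next 1.80). In the heterozygous line bound Vim was lowest in deprived replicate 1 at 370 CPM (next 471). In the knockout line bound Nes was highest in the control piece of mouse 22 at 106 CPM (next 69.4), and unbound Serpina3n in the control piece of mouse 12 at 3.88 CPM (next 2.17).

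The enrichment in bound RNA differed between lines, by a test of the difference itself, for 5 genes. Astrocyte minus heterozygous gave log2 values of 1.51 for Gfap, 2.30 for Serpina3n, 0.60 for Cd44, 0.57 for S1pr3 and -0.32 for Synm. Astrocyte minus knockout gave 1.50, 2.27, 0.52, 0.69 and -0.37 for the same genes.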

How the results depend on the processing

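Over 313 alternative fits, 204 of them without 1 replicate, no value of the 10 genes reversed its direction where it had a call; 2509 kept their side of the threshold, 26 lost a call and 31 gained one. The lost calls were all of deprivation in the heterozygous line, most of them by side letter or without pieces 17R and 21L. Another scaling moved the median of all genes by at most -0.06 on the log2 scale.

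Counts of all genes passing moved most for deprivation. DESeq2 gave 4 and 4 in bound and unbound RNA of the astrocyte line, 1167 in unbound RNA of the heterozygous line, 14 and 43 in the knockout line, 766 and 845 for the genotype difference (2 and 2 of the 8 genes) and 200 for the difference between fractions in the heterozygous line. Without the filter on low counts the counts were 85 and 143 (astrocyte), 1459 (heterozygous unbound), 28 and 52 (knockout), 576 and 872 for the genotype difference (3 and 3 of the 8), 15 (astrocyte), 118 (heterozygous) and 1 (knockout) for the difference between fractions, and 1 for enrichment between knockout and heterozygous lines. With limma-voom they were 160 for the bound genotype difference, 1 of the 8 genes for the unbound one, 1 in knockout unbound RNA and 11 for the heterozygous difference between fractions. Knockout unbound RNA gave 1 with all 4 groups in the fit and 2 with sex as a term. The cause was not tested.

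By side letter, 0 genes passed in either heterozygous fraction, none of the 8 (0 and 0), also with mouse as a replicate block (0 and 0), and 2 and 2 for the genotype difference. Without pieces 17R and 21L, 741 bound and 294 unbound genes passed, 1 and 1 of the 8, with fewer libraries in the fit. Summing the libraries of mice 17 and 21 gave 951 in bound RNA, where Vim no longer passed (0.36).

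With the replicate block, 2 and 3 genes passed in the knockout line, 694 and 960 for the genotype difference (3 and 4 of the 8), and 1 and 243 for the difference between fractions in the astrocyte and heterozygous lines. In the heterozygous and astrocyte lines same-numbered libraries correlated over 0.1 in 1 of 4 pairs per fraction and in 0 of 5 and 3 of 5. The block brought Osmr past the threshold in the astrocyte enrichment (0.28, adjusted p = 0.047) and changed no other call of the 8 genes outside the genotype difference.

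Leaving out 1 replicate gave 938 to 2089 genes in heterozygous bound RNA (2 to 4 of the 8) and 247 to 1141 in unbound RNA, 0 to 2 and 0 to 22 in the knockout line, 0 to 441 and 69 to 732 for the genotype difference (0 to 1 of the 8 in each), and 0 to 3 for the heterozygous difference between fractions. Heterozygous bound deprived replicate 2 gave the 938 and unbound deprived replicate 8 the 247.

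Depth limits Lcn2 and Timp1, with at most 19 counts in any library, and Serpina3n, with as few as 6.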

Other observations

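Other intermediate filament genes, chosen after their values were seen and given without a test, were also mostly higher in bound RNA. Of 9 such genes 9 lay above 0 in the astrocyte line, 8 in the heterozygous line and 8 in the knockout line, with median log2 bound over unbound values of 1.20, 1.55 and 1.43. The neurofilament genes Nefm (2.15, 3.35 and 3.07) and Nefh (3.29, 4.02 and 4.03) and the internexin gene Ina (1.20, 2.23 and 1.94) lay higher in the microglial lines than in the astrocyte line, and the muscle filament gene Des (1.83, 1.55 and 1.43) did not. The nuclear lamin genes Lmna (0.45, 0.25 and 0.24), Lmnb1 (0.31, -0.08 and -0.04) and Lmnb2 (0.42, 0.43 and 0.49) lay between the 44.9th and the 79.6th percentile of all genes tested. Exons of Nefm and Nefl overlap on opposite strands.

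Lcn2 and Timp1 were too low to test for deprivation. Their deprived and control CPM did not overlap in unbound RNA of the heterozygous line, and overlapped in every other line and fraction. For Lcn2 the gap, 0.0877 against 0.0905 CPM, lies between libraries of 3 counts each and rests on library scaling. The share of all genes without overlap was not counted, so no result is drawn from this. Counts are given for that line and fraction, and mean levels for the rest of the microglial libraries. In the heterozygous line Lcn2 had 2, 3, 0 and 3 counts in control pieces 14R, 15R, 21L and 21R and 5, 8, 3 and 9 counts in deprived pieces 14L, 15L, 17L and 17R, with a tie at 3. Timp1 had 3, 0, 1 and 2 counts in the same control pieces and 4, 7, 11 and 4 counts in the deprived ones. These groups follow the titles, which the side letters contradict for 17R and 21L. In unbound RNA of the knockout line the 2 sides overlapped. Mean Lcn2 levels were 0.169 CPM in control and 0.164 CPM in deprived libraries, and mean Timp1 levels 0.210 and 0.187 CPM. In bound RNA of that line the means were 0.088 and 0.183 CPM for Lcn2 and 0.099 and 0.043 CPM for Timp1. In bound RNA of the heterozygous line they were 0.025 and 0.057 CPM for Lcn2 and 0.031 and 0.158 CPM for Timp1.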
